A study of Mus musculus with 17 samples.

Results

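The transcripts described here encode 8 enzymes that make or break down proline, asparagine, glutamine, ornithine, aspartate and alanine around the common substrate glutamate. They were taken by gene symbol from the 56748 genes of the count table, by a rule that uses no measured value, although the list was drawn up with earlier results of these data known. *Aldh18a1*, *Pycr1*, *Asns* and *Glul* were grouped as synthesis enzymes, *Prodh* and *Oat* as breakdown enzymes, and *Got1* and *Gpt2* as transaminases. All 8 passed the filter on low counts, which left 16195 genes for testing.

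Bulk RNA-seq of polyadenylated RNA was available for 17 hearts of mice aged 12 to 16 months, with 1 library per heart. The 9 hMut hearts came from mice homozygous for the inducible *Polg* iMut allele and carrying a Ckmm-cre transgene (*Polg* iMut/iMut; +/Ckmm-cre), which switches the allele to a proofreading-deficient form of POLG, the mitochondrial DNA polymerase. The Ckmm promoter drives Cre in heart and skeletal muscle cells, so within the heart the switched allele is carried by cardiomyocytes. The 8 remaining hearts were labelled Ctrl, with no allele or transgene given for them in the sources used here. A whole-heart sample averages over cardiomyocytes and all other cells, so a change in the number of cells and a change in RNA per cell cannot be told apart.

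Proline is built from glutamate through pyrroline-5-carboxylate (P5C). *Aldh18a1* encodes the enzyme that makes P5C from glutamate, and *Pycr1* encodes a mitochondrial reductase that turns P5C into proline. In the opposite direction, proline dehydrogenase (*Prodh*) returns proline to P5C and passes electrons to the respiratory chain. Ornithine aminotransferase (*Oat*) links ornithine to the same intermediate. Asparagine synthetase (*Asns*) moves an amide group from glutamine to aspartate, and glutamine synthetase (*Glul*) adds ammonia to glutamate. *Got1* and *Gpt2* encode the cytosolic aspartate and the mitochondrial alanine aminotransferases. *Asns* is a well-studied target of the transcription factor ATF4, which binds C/EBP-ATF response elements when amino acids are scarce or mitochondria are stressed.

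Since that element is known by its letters, TGATGNAA was searched on both strands in the promoter window of each gene (RefSeq sequences placed on GRCm39, from 250 bases before the start site to 50 bases after it, 300 bases in all). All 8 genes had a window, and 3 held the motif, against 3.97% of all 32851 windows and 4.51% of the 27025 genes with a window. The stretches of 30 bases around the 3 matches are printed on the strand of the gene, 5′ to 3′, with the match in capitals. They show which of the enzymes carried these letters next to the start site.
*Asns*, chr6:7693214-7693243, minus strand: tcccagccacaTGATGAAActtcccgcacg
*Pycr1*, chr11:120534659-120534688, minus strand: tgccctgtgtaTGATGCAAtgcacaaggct
*Got1*, chr19:43513128-43513157, minus strand: cattgcattggTTGCATCAtacaagcctcc
The match began 23 bases before the RefSeq start site in *Asns*, 103 bases before it in *Pycr1* and 102 bases before it in *Got1*. In *Got1* it lay on the opposite strand and therefore reads as the reverse complement. In GENCODE the *Asns* and *Got1* stretches overlap an exon of some transcript, and the *Pycr1* stretch lies within an intron of a longer one. The windows of *Aldh18a1*, *Glul*, *Prodh*, *Oat* and *Gpt2* did not hold these letters. The RefSeq start site of *Prodh* lies 1013 bases inside the gene as placed in the count table. The bases before that outer start were therefore not searched for *Prodh*. A match is a description of the sequence and was not tested for binding.

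Total counts per library lay between 34425783 and 46486964 in Ctrl and between 32915159 and 40175122 in hMut hearts, and the mtDNA-encoded share of the counts was 23.5% to 30.9% and 15.9% to 23.0%, respectively. *Polg* itself was higher in hMut hearts (log2 fold change 0.74, adjusted p = 0.000448 in edgeR's quasi-likelihood test), as far as a gene count can check an allele that differs in its coding sequence. All 8 cardiomyocyte markers were detected, at a summed level of 45745 to 55295 CPM (TMM-normalized counts scaled to one library size) in Ctrl and of 35275 to 54593 CPM in hMut hearts. The lowest sums belonged to hMut 9 (35275 CPM) and hMut 6 (36892 CPM). The macrophage markers of hMut 6 reached 1078 CPM, against 222 to 322 CPM in Ctrl hearts, and its fibroblast markers 1756 CPM, against 860 to 1026 CPM. In hMut 9 these sums were 563 CPM for macrophage and 1378 CPM for fibroblast markers, also above every Ctrl heart. No cardiomyocyte, macrophage, fibroblast, lymphocyte or erythroid marker passed the threshold. The median log2 fold change of the 8 cardiomyocyte markers was -0.25. Higher in hMut were 1 of 6 endothelial (*Kdr*), 1 of 5 smooth muscle or pericyte (*Pdgfrb*) and 1 of 2 tested atrial markers (*Bmp10*), against 3.48% of all tested genes. The other tested atrial marker, *Myl4*, was not called (log2 fold change 0.14, adjusted p = 0.635, edgeR). The atrial markers *Myl7* and *Sln* were too low to be tested. No marker was at 0 in all libraries. Some of the results are therefore also given without both hMut 6 and hMut 9.

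The 2 proline synthesis enzymes and asparagine synthetase were higher in hMut hearts, whereas glutamine synthetase, the breakdown enzymes and the transaminases did not pass the threshold. The mean level in hMut was 11.8-fold that in Ctrl for *Asns*, 5.76-fold for *Pycr1* and 2.88-fold for *Aldh18a1*. At an adjusted p under 0.05, 3 of the 8 enzymes were called higher and 0 lower, while over all tested genes 4.62% were called, 3.48% higher and 1.14% lower. In the same 3 enzymes every hMut heart lay above every Ctrl heart, a separation found in 0.543% of the tested genes. None of the 8 had every hMut heart below every Ctrl heart (0.0617% of tested genes). All 3 calls were also made by DESeq2, by limma-voom with quality weights, with sex as a covariate and with mtDNA-encoded and noncoding genes left out.

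**Figure D1:**
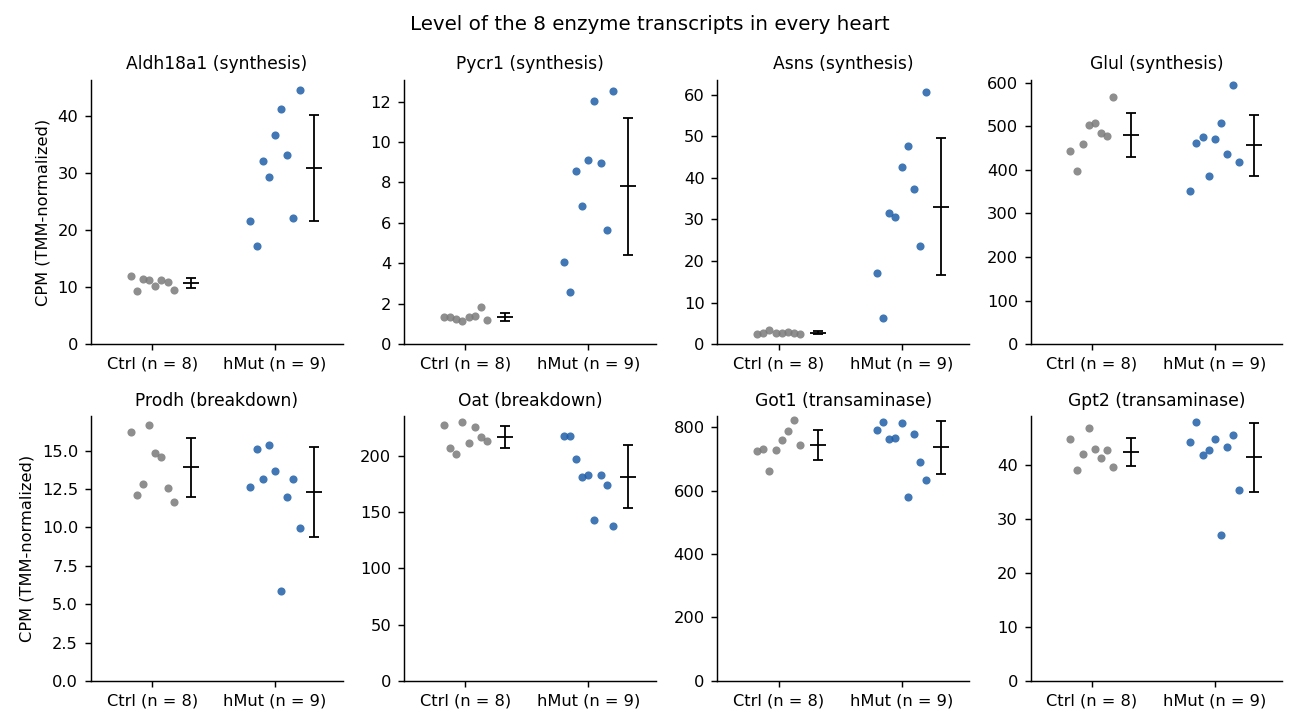
Level of each of the 8 transcripts in every heart, in CPM after TMM normalization (vertical axes start at 0 and differ between panels). Each point is a heart (Ctrl grey, n = 8; hMut blue, n = 9), and the bar beside the points is the mean ± SD. The hMut points lie wholly above the Ctrl points for *Aldh18a1*, *Pycr1* and *Asns* and overlap them in the other panels.

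*Aldh18a1* (chr19:40538701-40576907, minus strand, GRCm39) encodes the first enzyme of the route from glutamate to proline. Its level was 9.32 CPM at the lowest, 11.1 CPM at the median and 12.0 CPM at the highest in the 8 Ctrl hearts. In the 9 hMut hearts the lowest was 17.3 CPM, the median 32.2 CPM and the highest 44.7 CPM. The groups did not overlap, and hMut 2 was the lowest and hMut 9 the highest of the mutant hearts. The hMut mean was 30.9 ± 9.27 CPM (SD, n = 9), against 10.7 ± 0.954 CPM (SD, n = 8) in Ctrl. The log2 fold change was 1.53, with a standard error of 0.16 (adjusted p = 1.06e-05, edgeR).

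*Pycr1* (chr11:120526538-120534595, minus strand) encodes the reductase that completes proline synthesis in mitochondria. It had the lowest counts of the 8 genes, 36 to 73 per Ctrl library. Ctrl hearts lay between 1.14 and 1.82 CPM with a median of 1.34 CPM. The hMut hearts lay between 2.56 and 12.5 CPM with a median of 8.56 CPM, again with hMut 2 lowest, hMut 9 highest and no overlap with Ctrl. The means of 7.80 ± 3.37 CPM (SD, n = 9) and 1.35 ± 0.206 CPM (SD, n = 8) differed by 2.52 on the log2 scale, with a standard error of 0.26 (adjusted p = 1.05e-05, edgeR). *Pycr3*, which encodes a cytosolic reductase of the same family and is listed as Pycrl, differed by 0.12 (standard error 0.10, adjusted p = 0.442), and the difference between it and *Pycr1* was not itself tested.

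*Asns* (chr6:7675169-7693254, minus strand) encodes the enzyme that makes asparagine from aspartate and glutamine. Its level lay between 2.46 and 3.49 CPM in Ctrl hearts with a median of 2.81 CPM. In hMut hearts the lowest level was 6.30 CPM, the median 31.6 CPM and the highest 60.7 CPM. Every mutant heart exceeded every control, and the lowest, hMut 2, was far nearer to the controls than the next, hMut 1, at 17.1 CPM. The means were 33.0 ± 16.4 CPM (SD, n = 9) and 2.81 ± 0.327 CPM (SD, n = 8), which differed by 3.56 on the log2 scale, with a standard error of 0.32 (adjusted p = 4.56e-06, edgeR). By p-value *Asns* was number 5, *Pycr1* number 18 and *Aldh18a1* number 19 of all tested genes.

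*Glul* (chr1:153775690-153785469, plus strand), which encodes glutamine synthetase, was the synthesis enzyme that was not called. It lay between 396 and 567 CPM in Ctrl hearts (median 481 CPM) and between 351 and 595 CPM in hMut hearts (median 462 CPM). The ranges overlapped almost entirely, with 1 hMut heart above and 2 below all controls. The log2 fold change was -0.07, with a 95% interval from -0.25 to 0.10 (adjusted p = 0.618, edgeR). In GENCODE, 147 exon bases of *Glul* are shared with *Teddm2* on the opposite strand, which held a mean of 39.8 counts per library.

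**Figure D2:**
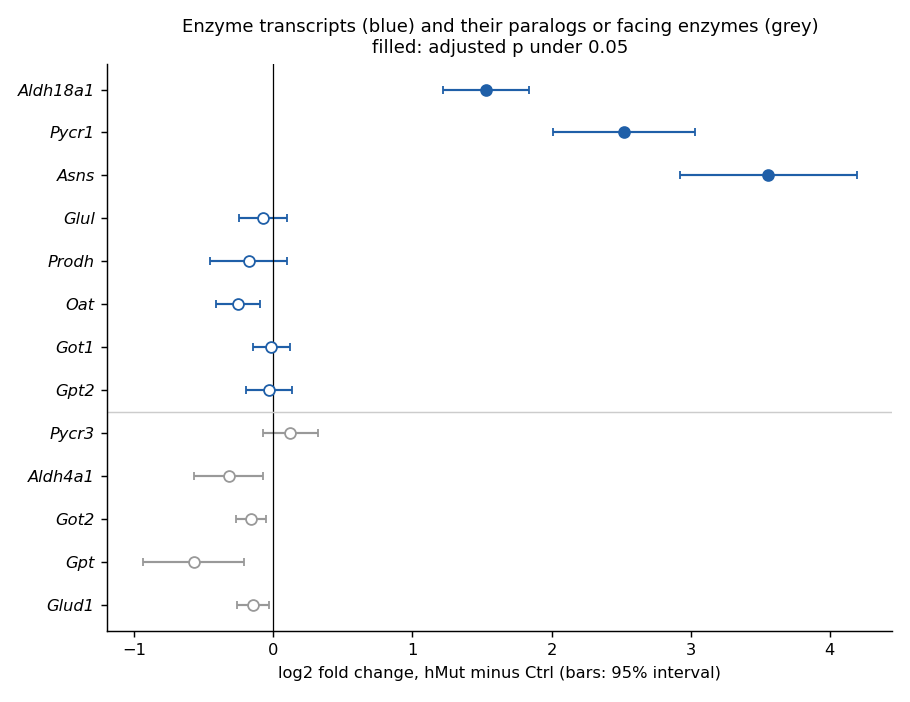
Log2 fold change of the 8 enzymes (blue) and of their paralogs or facing enzymes (grey), hMut minus Ctrl, with bars for the 95% interval and filled points where the adjusted p was under 0.05. *Asns* (3.56), *Pycr1* (2.52) and *Aldh18a1* (1.53) lie to the right of all other points, which lie between -0.57 (*Gpt*) and 0.12 (*Pycr3*).

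*Prodh* (chr16:17878221-17908067, minus strand), the enzyme that starts proline breakdown, ranged from 11.6 to 16.7 CPM in Ctrl (median 13.7 CPM) and from 5.85 to 15.4 CPM in hMut hearts (median 13.1 CPM). All hMut hearts but hMut 6 and hMut 9 lay within the control range. The log2 fold change was -0.18 (95% interval -0.46 to 0.10, adjusted p = 0.429, edgeR), and -0.04 without hMut 6 and hMut 9. *Prodh* shares 293 exon bases with *Dgcr6* on the opposite strand (mean 940 counts per library), and since the strand setting of the counting is not given in the sources used here, its level is uncertain. The next enzyme of the route, *Aldh4a1*, which turns P5C back into glutamate, averaged 69.3 ± 16.7 CPM over the hMut hearts (SD, n = 9) and 86.6 ± 5.61 CPM over the Ctrl hearts (SD, n = 8). It lay below all controls in 8 of 9 hMut hearts but did not pass the threshold (log2 fold change -0.32, standard error 0.13, adjusted p = 0.131, edgeR). *Prodh2*, the hydroxyproline dehydrogenase, was too low to be tested.

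*Oat* (chr7:132159207-132178127, minus strand) was the member nearest to a call in the other direction. Control hearts lay between 202 and 230 CPM with a median of 215 CPM. The hMut hearts lay between 138 and 217 CPM with a median of 183 CPM. In 7 of 9 mutant hearts the level was below every control, with hMut 9 and hMut 6 lowest, whereas hMut 1 and hMut 2 lay inside the control range. The means were 181 ± 28.0 CPM (SD, n = 9) and 217 ± 10.2 CPM (SD, n = 8), which differed by -0.26 on the log2 scale (standard error 0.08, unadjusted p = 0.00472, adjusted p = 0.0689, edgeR). The call depended on the method and the hearts. The adjusted p was 0.0327 in DESeq2, 0.0144 in limma-voom, 0.0460 with a stricter filter, 0.0315 without hMut 1 and 0.0245 without hMut 2, but 0.101 without hMut 6 and hMut 9. Among the cardiomyocyte markers, the hMut hearts below every control numbered 8 for *Tnni3* and 7 for *Tnnt2*, *Pln* and *Myl2*. They numbered 3 for *Myh6*, 2 for *Ryr2* and *Mb* and 0 for *Actc1*. The share of all tested genes with 7 of 9 (as *Oat*) or 8 of 9 hMut hearts (as *Aldh4a1*) below every control is not given here.

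The transaminases differed between genotypes by less than the spread between hearts. *Got1* (chr19:43488191-43513044, minus strand) lay between 662 and 822 CPM in Ctrl (median 737 CPM) and between 581 and 815 CPM in hMut hearts (median 765 CPM). Its log2 fold change was -0.02, with a 95% interval from -0.15 to 0.12 (adjusted p = 0.901, edgeR). *Gpt2* (chr8:86219205-86254189, plus strand) lay between 39.0 and 46.7 CPM in Ctrl (median 42.4 CPM) and between 27.1 and 47.9 CPM in hMut hearts (median 43.3 CPM). For *Gpt2* the log2 fold change was -0.03, with an interval from -0.20 to 0.13 (adjusted p = 0.830, edgeR). In both genes the heart below all others was hMut 6, and without hMut 6 and hMut 9 both log2 fold changes turned positive, at 0.06 for *Got1* and 0.07 for *Gpt2*, also short of the threshold. The partner enzymes in the other compartment had lower mean levels in hMut but were not called. Mitochondrial *Got2* differed by -0.16 (standard error 0.06, adjusted p = 0.0910) and cytosolic *Gpt* by -0.57 (standard error 0.19, adjusted p = 0.0772, edgeR). Each was below all controls in 8 of 9 hMut hearts, as was the cardiomyocyte marker *Tnni3*.

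Divided by the gene length given in the count table, levels can be ordered between genes. In Ctrl hearts the order of mean CPM per kilobase was *Got1* (293), *Glul* (127), *Oat* (91.8), *Gpt2* (7.51), *Aldh18a1* (2.64), *Prodh* (1.79), *Asns* (1.03) and *Pycr1* (0.344). No neighbours in that order had overlapping ranges. In hMut hearts the first 3 places were the same, followed by *Asns* (12.1), *Aldh18a1* (7.59), *Gpt2* (7.34), *Pycr1* (1.98) and *Prodh* (1.58). *Asns* had thus moved from place 7 to place 4 and *Pycr1* from place 8 to place 7. Among the hMut hearts the ranges of *Asns*, *Aldh18a1* and *Gpt2* overlapped one another, as did those of *Pycr1* and *Prodh*.

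To set synthesis against breakdown within each heart, ratios of counts were taken, which do not depend on the scaling of the libraries. The ratio of *Aldh18a1* to *Prodh* counts lay between 0.675 and 0.887 in Ctrl and between 1.14 and 7.03 in hMut hearts. On the log2 scale the means were 1.31 ± 0.79 (SD, n = 9) in hMut and -0.37 ± 0.15 (SD, n = 8) in Ctrl, a difference of 1.68 (exact permutation test of the genotype labels, two-sided, p = 8.23e-05, the smallest they can give, adjusted p = 0.000123 over the 3 ratios tested). *Aldh18a1* thus had fewer counts than *Prodh* in all 8 Ctrl hearts and more in all 9 hMut hearts. These counts are not divided by gene length, so a ratio of 1 does not mark equal levels. Per kilobase, mean *Aldh18a1* was above mean *Prodh* in Ctrl (2.64 and 1.79) as well as in hMut hearts (7.59 and 1.58). The ratio of *Pycr1* to *Prodh* lay between 0.0691 and 0.146 in Ctrl and between 0.170 and 2.05 in hMut hearts. Its log2 means were -0.76 ± 1.06 (SD, n = 9) and -3.35 ± 0.32 (SD, n = 8), a difference of 2.59 with the same exact permutation p of 8.23e-05 (adjusted p = 0.000123). Without hMut 6 and hMut 9, in which *Prodh* was low, the differences were 1.35 and 2.18 (exact permutation test, adjusted p = 0.000233 for both). Both differences lay mostly in the numerators, with log2 fold changes of 1.53 for *Aldh18a1*, 2.52 for *Pycr1* and -0.18 for *Prodh*. The ratio tests are therefore not separate from the calls of those 2 genes, and they carry the uncertainty in the *Prodh* level given above.

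**Figure D3:**
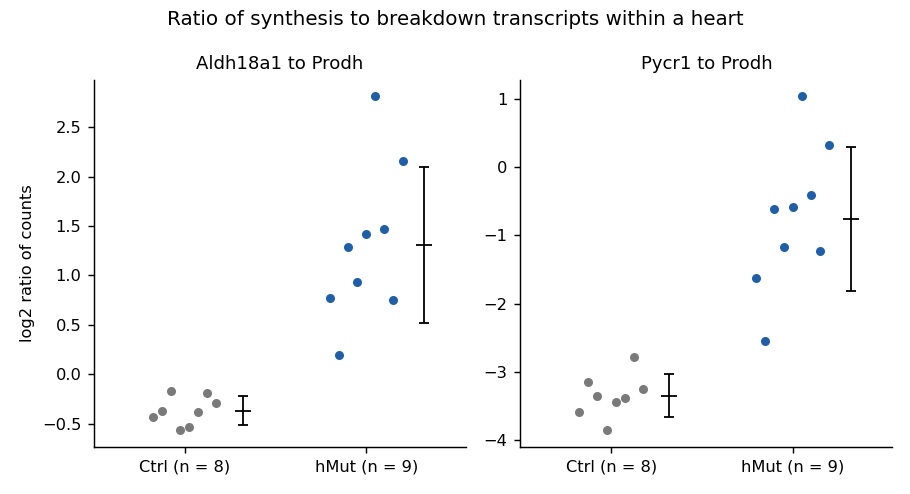
Log2 ratio of counts within each heart (points; Ctrl grey, n = 8; hMut blue, n = 9), with the mean ± SD beside them; the vertical axes differ between panels and do not start at 0. The hMut hearts lie above all Ctrl hearts for *Aldh18a1* to *Prodh* (means 1.31 and -0.37) and *Pycr1* to *Prodh* (means -0.76 and -3.35).

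The hMut hearts differed widely among themselves in the 3 enzymes that were called. The coefficient of variation over the hMut hearts was 49.7% for *Asns*, 43.2% for *Pycr1* and 30.0% for *Aldh18a1*, against 11.6%, 15.2% and 8.88% over the Ctrl hearts. For the other members it was 11.3% to 23.6% in hMut and 4.71% to 13.8% in Ctrl hearts. These coefficients are descriptions, and their difference between groups was not tested.

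The 9 hMut hearts stood in exactly the same order for all 3 enzymes. From the highest to the lowest, that order was hMut 9, 6, 5, 7, 3, 4, 8, 1 and 2. Over these hearts Pearson's r of log2 CPM was 0.98 between *Asns* and *Pycr1*, 0.98 between *Aldh18a1* and *Pycr1* and 0.95 between *Asns* and *Aldh18a1*. Spearman's rho was 1 for each of these pairs (exact permutation of the pairings, p = 5.51e-06, adjusted p = 5.14e-05 over 28 pairs of members), and for r the exact permutation p was 2.76e-06, the smallest the pairings can give (adjusted p = 2.57e-05). Without hMut 2 and hMut 1, the 2 hearts farthest from the median, r was 0.95, 0.98 and 0.97, respectively. With any 1 heart left out, r was at least 0.97, 0.97 and 0.93. For these pairs r was not computed without both hMut 9 and hMut 6. The 2 hearts at the top of the order, hMut 9 and hMut 6, also had the lowest cardiomyocyte sums. Their macrophage and fibroblast sums lay above every Ctrl heart. The endothelial sum was highest in hMut 7 and the smooth muscle and pericyte sum in hMut 8. In hMut 9 these sums, 1002 and 1044 CPM, also lay above every Ctrl heart (at most 909 and 1016 CPM). In hMut 6 they did not (811 and 705 CPM). The part of these marker levels in the correlation was not tested. Without both hearts the log2 fold changes were 3.27 for *Asns*, 2.26 for *Pycr1* and 1.36 for *Aldh18a1*, all past the threshold.

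*Oat* ran against the 3 enzymes, with r of -0.81 against *Pycr1*, -0.79 against *Aldh18a1* and -0.78 against *Asns* (exact permutation, adjusted p = 0.0296 for each). The rank correlation was weaker (rho -0.70, exact permutation adjusted p = 0.110). Without the 2 farthest hearts r fell to between -0.74 and -0.60 with unadjusted exact permutation p of 0.0520 to 0.166, so the relation rests in part on those hearts. They were hMut 9 and hMut 6 for *Asns*, and hMut 2 and hMut 1 for *Pycr1* and *Aldh18a1*. *Prodh*, *Got1* and *Gpt2* correlated with one another (r = 0.96 for *Prodh* and *Gpt2*, 0.86 for *Prodh* and *Got1*, 0.88 for *Got1* and *Gpt2*, exact permutation adjusted p = 0.0181 to 0.0218). Those relations rest on hMut 6 and hMut 9, since r without them was 0.33, 0.20 and 0.15. *Oat* also correlated with each of them, with r of 0.89 for *Got1* (exact permutation adjusted p = 0.0153), 0.80 for *Gpt2* (0.0296) and 0.73 for *Prodh* (0.0427). Without hMut 6 and hMut 9 these values were 0.58, 0.32 and 0.11, with unadjusted exact permutation p of 0.168, 0.490 and 0.828. *Glul* correlated with no other member past the adjusted threshold.

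**Figure D4:**
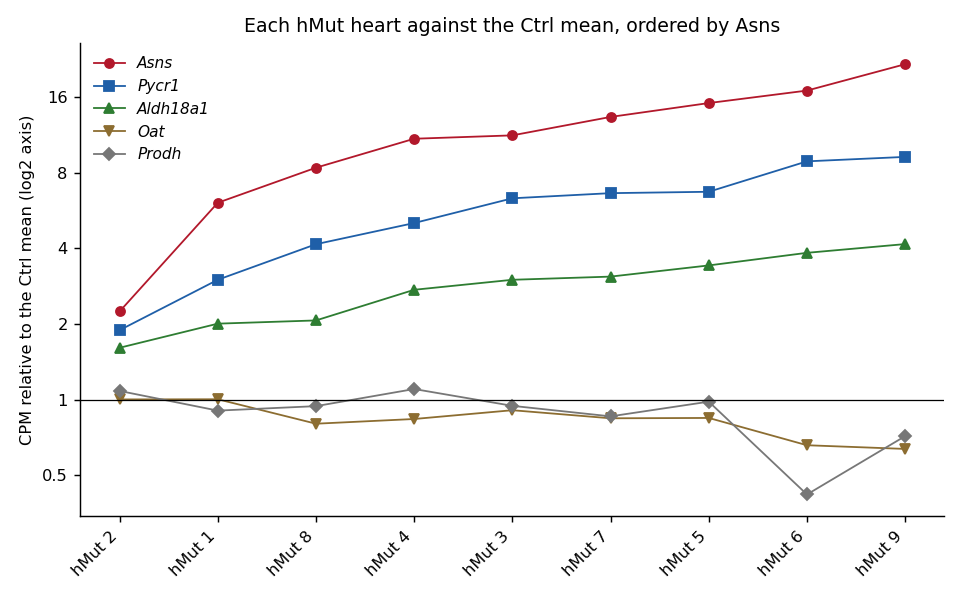
CPM of 5 enzymes in each hMut heart relative to the Ctrl mean (log2 vertical axis, 1 = Ctrl mean), with the hearts ordered by *Asns*. *Pycr1* and *Aldh18a1* rise in the same order from hMut 2 to hMut 9, while *Oat* and *Prodh* stay near 1 or below it and are lowest in hMut 9 and hMut 6, respectively.

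The level of mtDNA-encoded mRNAs in the mutant hearts was scored as their mean log2 CPM relative to Ctrl. This score ran from -1.50 (hMut 6) to -0.32 (hMut 2) in the hMut hearts, and the part of cell composition in it was not tested. Correlation with this score did not pass the adjusted threshold for any of the 8 members. The strongest values were 0.80 for *Gpt2* (rho 0.62), 0.77 for *Prodh* (rho 0.35) and -0.66 for *Aldh18a1* (rho -0.60), each with an exact permutation adjusted p of 0.122 for r. For *Pycr1* r was -0.62 (adjusted p = 0.152) and for *Asns* -0.57 (adjusted p = 0.196), both with rho of -0.60 (exact permutation adjusted p = 0.194). Without hMut 6 and hMut 2, the hearts with the most extreme scores, r was 0.10 for *Gpt2*, -0.09 for *Prodh*, -0.45 for *Aldh18a1*, -0.27 for *Pycr1* and -0.27 for *Asns*. The heart with the highest *Asns*, *Pycr1* and *Aldh18a1* levels, hMut 9, had a score of only -0.68.

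The genes whose pattern was most like that of each called enzyme were sought among 16117 tested genes, by Pearson's r of deviations from the group means over the 17 hearts. For *Asns* they were *Slc7a5*, a large neutral amino acid transporter (r = 0.97), *Psat1*, an enzyme of serine synthesis (0.94), and *Lgals3*, which encodes galectin-3 (0.94). *Pycr1* stood at place 5 and *Aldh18a1* at place 16 of the *Asns* list. For *Pycr1* they were *Sars*, a seryl-tRNA synthetase (0.96), *Atp6v1h*, a subunit of the vacuolar proton pump (0.95), and *Cyb5r1*, a cytochrome b5 reductase (0.94), with *Asns* at place 4 and *Aldh18a1* at place 12. For *Aldh18a1* they were *Gars*, a glycyl-tRNA synthetase (0.94), *Rhbdd1*, a rhomboid protease (0.93), and *Atp6v1h* (0.93), with *Pycr1* at place 7 and *Asns* at place 8. *Oat* stood near the far end of all 3 lists, with r between -0.70 and -0.76. The 3 called enzymes varied more over the hMut than over the Ctrl hearts, so these r were set mainly by the hMut hearts. No r over the Ctrl hearts alone is given, and the most alike genes are the highest of 16117.

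Beyond the 8 members, 51 genes of the neighbouring pathways were listed, of which 45 were tested and 8 were higher and 0 lower in hMut (17.8%, against 4.62% of all tested genes in either direction). Of these 8, 6 were transcription factors or regulators around ATF4 and 2 were enzymes, out of 38 enzymes and carriers tested (5.26%, near the share of all tested genes). The enzymes were *Odc1*, which makes putrescine from ornithine (log2 fold change 0.35, adjusted p = 0.0132), and *Ctps1*, listed as Ctps, a CTP synthetase that uses glutamine (0.28, adjusted p = 0.00466, edgeR). None of the 5 other genes of proline metabolism, the 9 of aspartate and asparagine metabolism, the 7 of glutamate and glutamine metabolism or the 6 of the malate-aspartate shuttle was called in edgeR. The median log2 fold change was 0.06, -0.07, -0.34 and -0.18 in these lists, against 0.00 over all tested genes. Among them, *Glud1*, the glutamate dehydrogenase, was at -0.15 (adjusted p = 0.141) and *Aspg*, an asparaginase at the limit of detection, at -0.78 (standard error 0.53, adjusted p = 0.349).

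The regulators that were higher included *Atf4* itself, with means of 107 ± 36.7 CPM over the hMut hearts (SD, n = 9) and 53.4 ± 4.44 CPM over the Ctrl hearts (SD, n = 8), which differed by 1.002 on the log2 scale (adjusted p = 0.00147, edgeR). *Atf5*, a related factor, differed by 1.46 (adjusted p = 6.25e-06), *Trib3*, a pseudokinase that binds ATF4, by 2.87 (adjusted p = 1.10e-05), and *Nupr1*, a stress-inducible chromatin protein, by 1.62 (adjusted p = 0.00297). The others, *Cebpg* (0.52, adjusted p = 0.00467) and *Ddit3* (1.23, adjusted p = 0.0181), are named after their values were seen, and *Cebpb* was not called (0.15, adjusted p = 0.636).

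**Figure D5:**
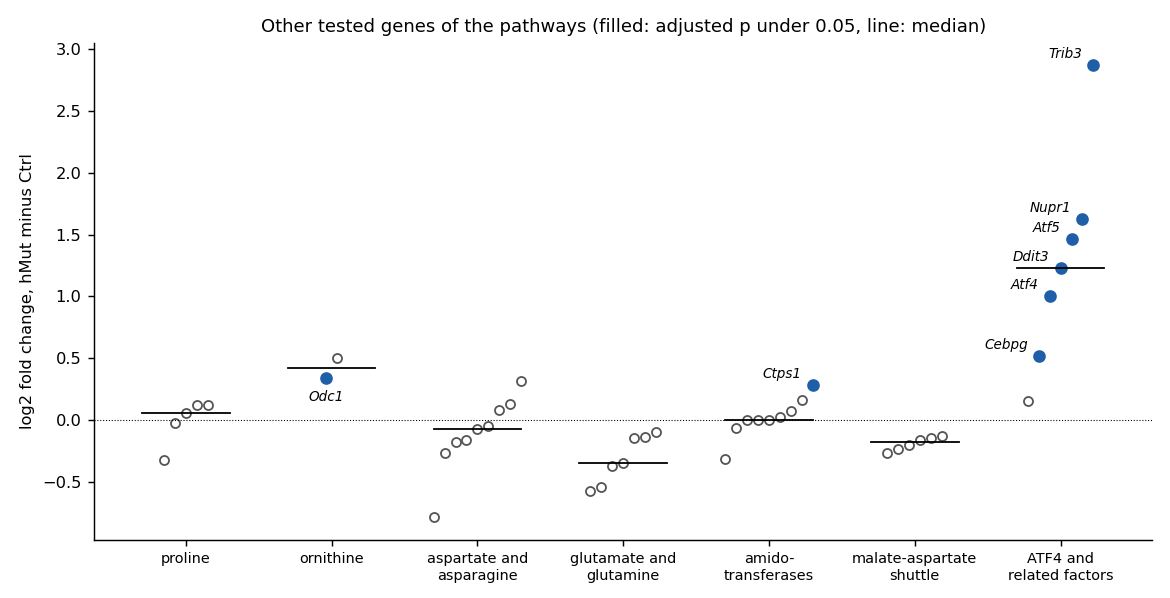
Log2 fold change, hMut minus Ctrl, of the 45 other tested genes of the pathways by list (filled and named where the adjusted p was under 0.05, horizontal line at each list's median). Among the enzymes and carriers *Odc1* (0.35) and *Ctps1* (0.28) are filled, and among the 7 regulators 6 are filled, up to *Trib3* at 2.87.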

How the data were processed

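Poly(A)-selected libraries of 17 mouse hearts (9 hMut, 8 Ctrl) were sequenced on a NovaSeq X Plus. Per the submitters' processing notes and the methods, reads were trimmed by fastp, mapped by HISAT2 (2.2.1) on GRCm39 and assigned to genes by featureCounts (2.0.6). The table the authors deposited holds these raw counts without normalization. Samples were grouped by their titles, and replicate numbers name different mice. Counts were normalized by TMM, filtered with filterByExpr and tested with edgeR's quasi-likelihood test (4.0.16, R 4.3.3), with genotype as the only term and Benjamini-Hochberg adjustment over 16195 genes at a threshold of 0.05. Standard errors were derived from the log2 fold change and the F statistic, and 95% intervals from the standard error by the normal approximation. Log2 CPM used a prior count of 2 and ratios a pseudocount of 0.5. Marker sums and levels are TMM-normalized CPM. The test was checked on simulated counts for the hMut and Ctrl libraries and 16195 genes, where 81 of 98 genes changed by 1 on the log2 scale and 61 of 99 changed by 0.5 were called, with 5 unchanged genes called and 0 when none was changed. Each gene had the same simulated dispersion in both groups, so a spread that differs between groups was not checked. No library was a copy of another (Spearman's correlation over genes 0.906 to 0.926 in all 136 pairs).

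Named were the 8 members, their paralogs and facing enzymes, up to 4 called genes per pathway list with the smallest adjusted p, the 3 genes most like each called member (mean of at least 10 counts) and *Polg*. Some genes that this rule would name, and 1 ratio, are not reported here. The members, lists and tests were chosen with earlier results of these data known. Alternatives were DESeq2 (1.42.0), RLE and upper-quartile normalization, no filter or at least 10 CPM in 8 libraries, a table of protein-coding genes from which the mtDNA-encoded genes were removed, a term for sex (read from *Xist* and Y-linked counts), a block for the replicate number, limma-voom (3.58.1) with quality weights, each library left out, and hMut 6 and hMut 9 left out. Figures were drawn with matplotlib 3.10.9, and permutation tests were run in Python 3.11.15 (numpy 2.4.6).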

Additional observations from a re-analysis of the deposited data

Results flagged for a closer look

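Of 22 tests for a heart far from the rest of its group, 2 were positive, where chance gives about 1 in 20. *Pycr1* in Ctrl 7 was at 0.903 on the log2 CPM scale, above the other controls by 0.574 of the range over all controls, Ctrl 7 included. This heart still lay below every hMut heart. *Prodh* in hMut 6 was at 2.56 on the log2 CPM scale, below the other hMut hearts by 0.553 of the range over all hMut hearts, hMut 6 included. hMut 6 was also the heart with the highest macrophage marker sum, and the part of that difference in the *Prodh* level was not tested.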

How the results depend on the processing

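*Asns*, *Pycr1* and *Aldh18a1* were called higher under every alternative that could be run, with log2 fold changes of 3.24 to 3.57, 2.26 to 2.52 and 1.36 to 1.53, and of 3.40 to 3.70, 2.41 to 2.64 and 1.44 to 1.60 when 1 library was left out. *Pycr1* was too low for the filter at 10 CPM. The number of members called was 3 or 4, and *Oat* was the additional one, with log2 fold changes of -0.26 in DESeq2, -0.25 with the stricter filter and -0.21 in limma-voom, and of -0.29 to -0.21 (adjusted p 0.0245 to 0.116) with 1 library left out. Of 424 values under alternatives, 384 kept their direction and side of the threshold or stayed within 1.5 times the count.

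The number of genes called moved from 749 to 1548 in DESeq2, 2081 in limma-voom, 463 without a filter, 431 without hMut 6 and hMut 9, and 395 (without hMut 5) to 1792 (without hMut 2) with 1 library left out. The other pathway genes called moved from 8 to 14 in DESeq2 and 16 in limma-voom, and to between 8 and 15 with 1 library left out, the 15 without hMut 2. These causes were not tested. Values near 0 changed sign. *Got1* turned to 0.0037 with sex as a covariate, 0.0047 under the block, 0.024 in limma-voom and 0.055 without hMut 6 and hMut 9, and *Gpt2* to 0.039 in limma-voom and 0.066 without those hearts. With 1 library left out, *Got1* ranged from -0.039 to 0.022, *Gpt2* from -0.061 to 0.029, and the correlation with the mtDNA-encoded mRNA score from -0.44 to 0.38 for *Glul* and from -0.19 to 0.66 for *Got1*.

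The replicate numbers showed no clear pairing of the hearts. In their deviations from the group means of log2 CPM, same-numbered hearts correlated by -0.23 to 0.34, and 1 of 8 pairs exceeded 0.1. Such a check cannot exclude a pairing. With the replicate number as a block, to which hMut 9 contributes nothing, 195 genes and 5 other pathway genes were called, and *Asns* (3.24), *Pycr1* (2.30) and *Aldh18a1* (1.40) were among the calls. Depth limits *Pycr1* most, with as few as 36 counts in a library.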
